A study of Mus musculus with 3 samples.

Results

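Cytosines that stand in unbroken runs of 4 or more were followed in bisulfite-treated messenger RNA of mouse embryonic stem cells. A cytosine was a member when it had a coverage of at least 10 reads in each of the 3 libraries and belonged to 4 or more adjoining listed positions of the same transcript. This rule uses position and coverage but no measured conversion. It took 85132 of 1639820 cytosines with that coverage (5.19%), in 21002 runs of 5531 transcripts and 5469 named genes. They are compared with 866860 single cytosines with no listed cytosine immediately before or after them, and beside these with 502326 cytosines in runs of 2 and 185502 in runs of 3.

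The 3 libraries form 1 group, Tet1-/-, Tet2-/-, Tet3-/- cells of the J1 background, numbered here as replicates 1 to 3. Polyadenylated RNA was taken after the feeder fibroblasts had been depleted. No wild-type sample was analysed here, and the labels name neither separate clones nor separate cultures, so the spread between replicates may be technical. Of 8 stem cell markers all were listed, with 0.464% to 0.486% of coverage, while 5 of 6 fibroblast markers took 0.0250% to 0.0412% and Postn was not listed. Tet1 and Tet3 held no testable run cytosine and Tet2 held 4, none of which was called or had an unadjusted p below 0.05 in the exact binomial test. Which exons the deletions remove is not stated in the labels, so these reads check nothing about the knockout.

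Bisulfite deaminates cytosine to uracil only where the base is unpaired, and 5-methylcytosine resists the reaction. In RNA, 5-methylcytosine is placed by enzymes of the NSUN family and by Dnmt2 (Trdmt1). A cytosine that is read unchanged may be modified or may simply have escaped the reagent. Runs of cytosines are also the binding sites of the poly(C)-binding KH-domain proteins, Pcbp1 to Pcbp4 and Hnrnpk, which act in mRNA stability and translation, and within coding sequence the codons of proline begin with a pair of cytosines. The unconverted share used below is the number of unconverted reads over the coverage, in percent.

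How listed runs relate to runs of the letter C was examined where sequence was at hand, in the first 50 bases of transcripts. RefSeq start sequences (build GRCm38.p6) were matched to 4485 transcripts with 5 or more listed cytosines there. In 3184 (71.0%) every listed position fell on a C. Only these were kept, so inside them a listed run is a run of C by selection. The other transcripts were not examined further. Of 37122 cytosines between the first and the last listed position of these starts, 37044 (99.8%) were listed. All 126 runs of 4 or more inside them, in 120 genes, were bounded by other letters on both sides, so listed lengths were sequence lengths there. The following starts are shown because they hold the longest and the most deeply read of these runs. Capitals mark the run, and each line is written 5′ to 3′.

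Rps12 (ribosomal protein), chr10:23787180-23787207, minus strand: cgccggccttttCCCCtgccgccgccga
Cct8 (chaperonin subunit), chr16:87495831-87495858, minus strand: cagtgcgcggcgCCCCttgcttcctcgg
Cdca7 (MYC-responsive nuclear factor), chr2:72476241-72476268, plus strand: tgttccgacgaactatCCCCgttccgag
Ybx1 (mRNA-binding protein and m5C reader), chr4:119294464-119294491, minus strand: ggtagcgggagcggagagcggaCCCCag
Nop2 (ribosomal RNA methyltransferase), chr6:125131905-125131932, plus strand: gtgcgacctctgagttcttCCCCCCagt
Agrn (heparan sulfate proteoglycan), chr4:156197461-156197488, minus strand: agtcctgCCCCCCgagcggtccggcccg

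In Rps12, the run at positions 15 to 18 had a share of 0.520%, 0.672% and 0.842% in replicates 1, 2 and 3 from 4515 to 5057 reads summed over its 4 places. In Cct8 the run at 24 to 27 had 1.25%, 0.851% and 0.859%, and in Cdca7 the run at 39 to 42 had 0.618%, 1.19% and 0.678%. All 3 replicates of Rps12, Cct8 and Cdca7 lay below the library-wide share of 1.41% to 1.53%. The Ybx1 run at 45 to 48 was higher, with 1.97%, 2.299% and 1.23%, and its last cytosine alone had 2.47%, 3.47% and 3.13%. The runs of 6 in Nop2 and Agrn had 3, 0 and 3 and 4, 0 and 3 unconverted reads in the replicates, from 60 to 129 reads summed over their places, too few to rank the places. None of these cytosines was called.

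The members as a whole were converted more completely than single cytosines. Over all their reads the unconverted share was 1.35%, 1.28% and 1.23% in replicates 1, 2 and 3, a mean of 1.28% ± 0.0626 (SD, n = 3), against 1.57%, 1.48% and 1.45% at single cytosines, a mean of 1.499% ± 0.0625. The difference within each library was -0.218, -0.205 and -0.221 percentage points, and its mean of -0.215 ± 0.00815 (SD, n = 3) was far larger than its spread. Runs stood at 0.857 ± 0.00798 times the single cytosines. With 3 libraries an exact two-sided sign-flip permutation test cannot give a p under 0.25, and it gave 0.25. No unconverted read was seen in any library at 33.7% of run cytosines and at 27.4% of single ones, at a mean coverage of 69.3 and 82.5 reads.

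The share went down step by step with run length as far as runs of 5. It was 1.44% ± 0.0665 in runs of 2 and 1.38% ± 0.0667 in runs of 3, differences from single cytosines of -0.0565 ± 0.00939 and -0.117 ± 0.0156 points. Runs of 4, just inside the rule, had 1.29% ± 0.0642 and runs of 5 had 1.25% ± 0.0677 (SD, n = 3 for each). Beyond that the steps were not all downward. Runs of 6 stood at 1.26% ± 0.0154, lower than runs of 5 in replicate 1 only. The 571 cytosines in runs of 7 stood at 1.15% ± 0.119, below runs of 5 and of 6 in each library. In the 145 cytosines of 22 runs of 8 or more the share was 1.36%, 1.27% and 1.48%, above runs of 7 in each library. Runs of 6 or more differed from runs of 4 by -0.0798, -0.0689 and 0.0125 points, so that difference lay within its spread (-0.0454 ± 0.0505, exact sign-flip p = 0.5).

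**Figure D1:**
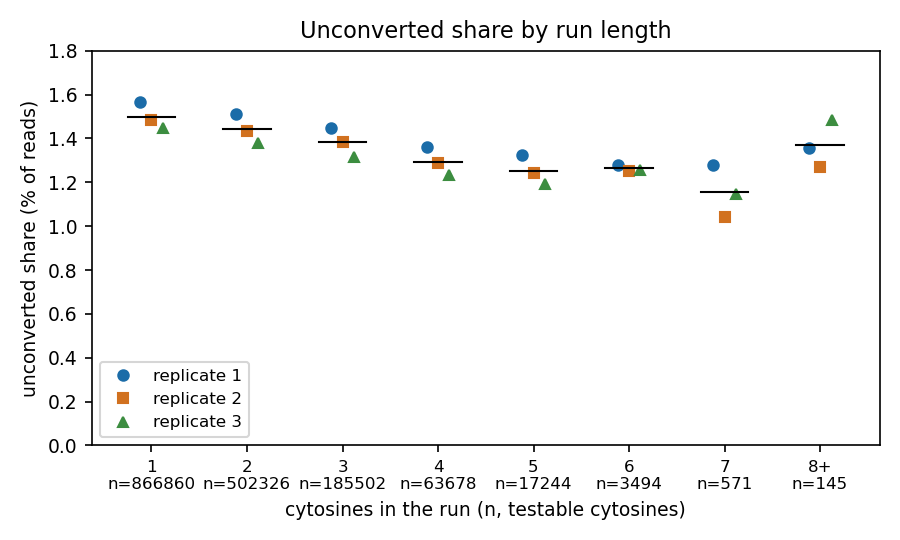
Unconverted share (percent of reads, vertical axis) by the number of cytosines in the run (horizontal axis, with the number of testable cytosines), 1 symbol per replicate and a bar at the mean. Replicates keep their order from single cytosines to runs of 5 while the mean falls from 1.499% to 1.25%, and the scatter grows in the few long runs.

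The comparison was repeated inside transcripts, so that both kinds came from the same mRNAs. In 5526 transcripts that held both, the weighted difference was -0.229, -0.215 and -0.231 points (mean -0.225 ± 0.00885, SD, n = 3). Runs were lower in 66.1%, 66.8% and 66.4% of these transcripts. They were lower in all 3 libraries in 36.2% and higher in all 3 in 7.46%. Among the 543 transcripts with at least 2000 reads of each kind in each library, runs were lower in 77.7%, 77.7% and 78.8% of transcripts, with a median difference of -0.248, -0.239 and -0.243 points. Runs were lower in all 3 libraries in 339 of these transcripts and higher in all 3 in 47.

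Coverage, the density of cytosines and the place along the mRNA were then held alike in turn. In each of 5 coverage classes runs were lower in all 3 libraries, with mean differences from -0.250 ± 0.0105 points in the deepest class, 200 reads and above, to -0.154 ± 0.0209 in the class next below it (SD, n = 3). Density made a larger difference: single cytosines themselves went from 1.60% ± 0.0691 with 0 to 2 other listed cytosines within 10 positions on either side to 1.39% ± 0.0649 with 9 or more. The difference between runs and single cytosines was -0.232 ± 0.0233 points with 3 to 4 such neighbours, -0.211 ± 0.0112 with 5 to 6, -0.170 ± 0.00885 with 7 to 8 and -0.0449 ± 0.00506 with 9 or more. It remained below 0 in every library of each class. Averaged over these classes it was -0.143 points, against the -0.215 of all reads.

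**Figure D2:**
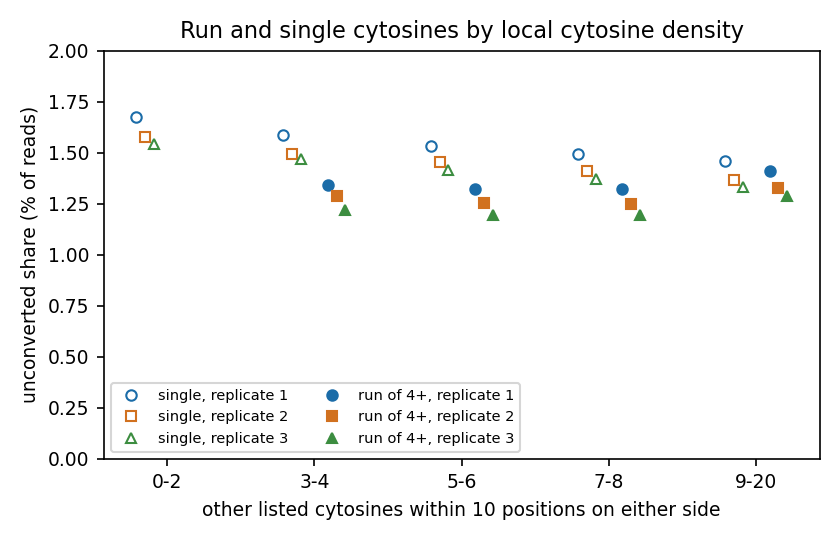
Unconverted share (percent of reads, vertical axis) of single cytosines (open symbols) and run cytosines (filled) by the number of other listed cytosines within 10 positions on either side, 1 symbol per replicate. Single cytosines go down from left to right, and the gap to the runs narrows to -0.0449 points in the densest class.

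By position along the transcript the gap was smallest at 51 to 200, at -0.118 ± 0.0103 points, and lay between -0.240 ± 0.0176 and -0.269 ± 0.00767 in each class beyond position 500 (SD, n = 3). In the first 50 positions, where the printed starts lie, the 1045 run cytosines had 1.05%, 1.07% and 1.00%, against 1.44%, 1.38% and 1.32% at single ones.

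The place inside the run mattered as much as the run itself. In the 19222 runs whose cytosines were all testable, the first (5′) cytosine had 1.55%, 1.49% and 1.44% in replicates 1, 2 and 3, which differed from single cytosines by -0.00608 ± 0.0106 points (SD, n = 3), less than the spread. The second place had 1.32% ± 0.0703, the third 1.14% ± 0.0629 and the last 1.23% ± 0.0604. The last minus the first was -0.253, -0.264 and -0.262 points (mean -0.260 ± 0.00584), and the next-to-last minus the first was -0.345, -0.362 and -0.380 (mean -0.362 ± 0.0175). The last cytosine stood above the next-to-last by 0.0919, 0.0981 and 0.118 points (mean 0.103 ± 0.0138). Each of these had the same sign in 3 of 3 libraries, with an exact sign-flip p of 0.25, the smallest possible. The contrasts with the next-to-last place were chosen after the shares by place had been seen. In the runs of the matched starts the gap was smaller, with 1.31% ± 0.0583 at 106 first and 1.24% ± 0.0837 at 122 last cytosines. The printed runs of Rps12, Cct8, Cdca7 and Ybx1 had a higher mean share at the last place than at the first.

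The shape was seen in the means at each length from 4 to 6, and in part beyond. In 90 complete runs of 7 or more the first place had 1.64%, 1.25% and 1.10% and the next-to-last 0.997%, 1.14% and 0.949%. The next-to-last was thus lower than the first in each library. The last place had 1.66%, 1.09% and 1.47%, so neither it nor the first was lower in all libraries. It stood above the next-to-last in replicates 1 and 3 only. Runs of 4 went from 1.49% ± 0.0512 at the first place through 1.30% ± 0.0782 and 1.15% ± 0.0705 to 1.23% ± 0.0578 at the last. Runs of 5 had 1.48% ± 0.0806, 1.39% ± 0.0556, 1.07% ± 0.0489, 1.07% ± 0.0989 and 1.24% ± 0.0771. In the 539 runs of 6 the first place was at 1.63% ± 0.0537 and the next-to-last at 1.02% ± 0.0472 (SD, n = 3 for each). Shorter runs lacked the rise at the end: runs of 3 went from 1.45% ± 0.0614 through 1.40% ± 0.0681 to 1.29% ± 0.0723, and runs of 2 from 1.46% ± 0.0637 to 1.42% ± 0.0695. Coverage hardly moved along the run, from 99.5% ± 0.0563 of the run's mean at the third place of runs of 4 to 100.4% ± 0.0423 at the last.

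**Figure D3:**
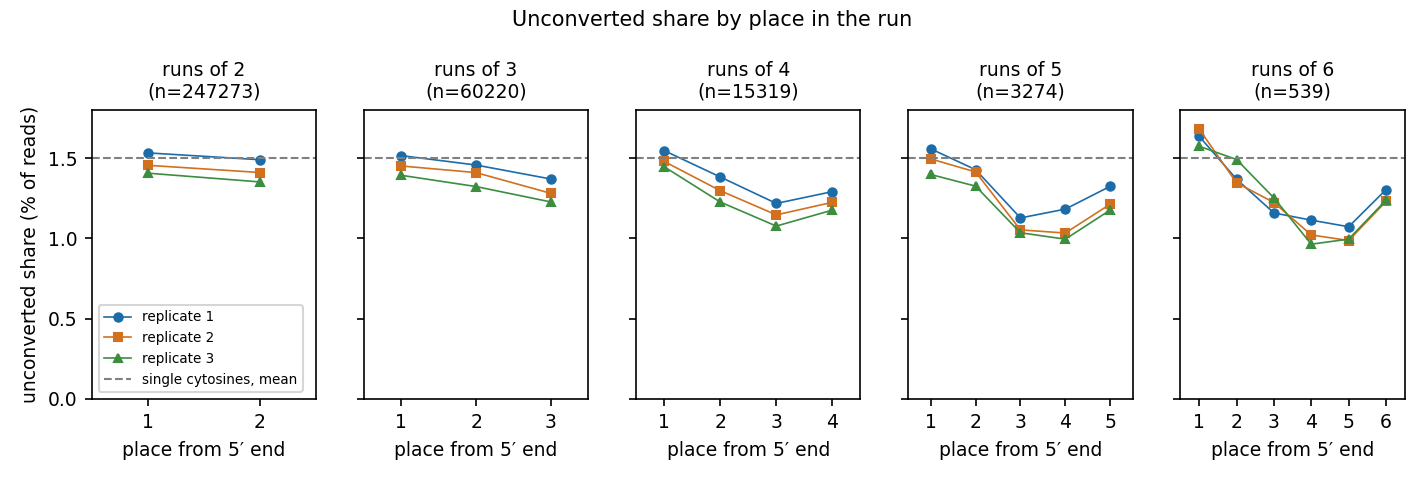
Unconverted share (percent of reads, vertical axis) at each place counted from the 5′ end (horizontal axis), 1 panel per run length from 2 to 6, with 1 line per replicate and a dashed line at the mean of single cytosines. In runs of 4 and 5 the replicates start around the dashed line and in runs of 6 above it, then fall to about 1.0% to 1.2% at the next-to-last place and rise again at the last.

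The most deeply read runs show this place pattern gene by gene, and also departures from it. Of 694 runs of 4 with at least 200 reads at each place in each library, the third place had a lower mean share than the first in 480 (69.2%). The rise at the end was much less general in single runs, with the third place below the last in 55.3% of the 694. Among the 10 deepest runs, each in another gene, the third place lay below the first in 7 and below the last in 10. Hsp90ab1, a cytosolic chaperone, was the deepest, with 12945.7 reads per place on average and a share over the run of 1.12%, 1.05% and 0.993%. Rpl10a went from 0.892% ± 0.0927 at 323 to 0.680% ± 0.0746 at 325. The lowest of the 10 was Rps20, whose run at 11 to 14 had 0.533%, 0.535% and 0.466%, followed by the metallothionein Mt2 with 0.820%, 0.659% and 0.545% at 341 to 344. Rplp1 had 1.44% ± 0.103 over its run (SD, n = 3). Ribosomal protein genes have near-identical copies in the genome, and reads of these copies may be counted here.

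In Ptma, which encodes prothymosin alpha, the first cytosine stood apart. Position 164 had 2.64%, 2.63% and 2.51%, while the next 3 places had means of 0.731%, 0.569% and 0.874%. Its adjusted p was 4.30e-48 in the exact binomial test, at a level below the 10% needed for a call. In Rplp0 the last cytosine did so: position 474 had 1.87%, 2.01% and 1.66% after means of 0.932%, 0.809% and 0.769% at the 3 places before it. In Actb, the cytoskeletal actin gene, the lowest place was the first, with 0.901%, 0.992% and 0.847% at position 369 against 1.82%, 1.94% and 1.62% at the last. None of the 3 replicates overlapped between those places in Ptma, Rplp0 and Actb.

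**Figure D4:**
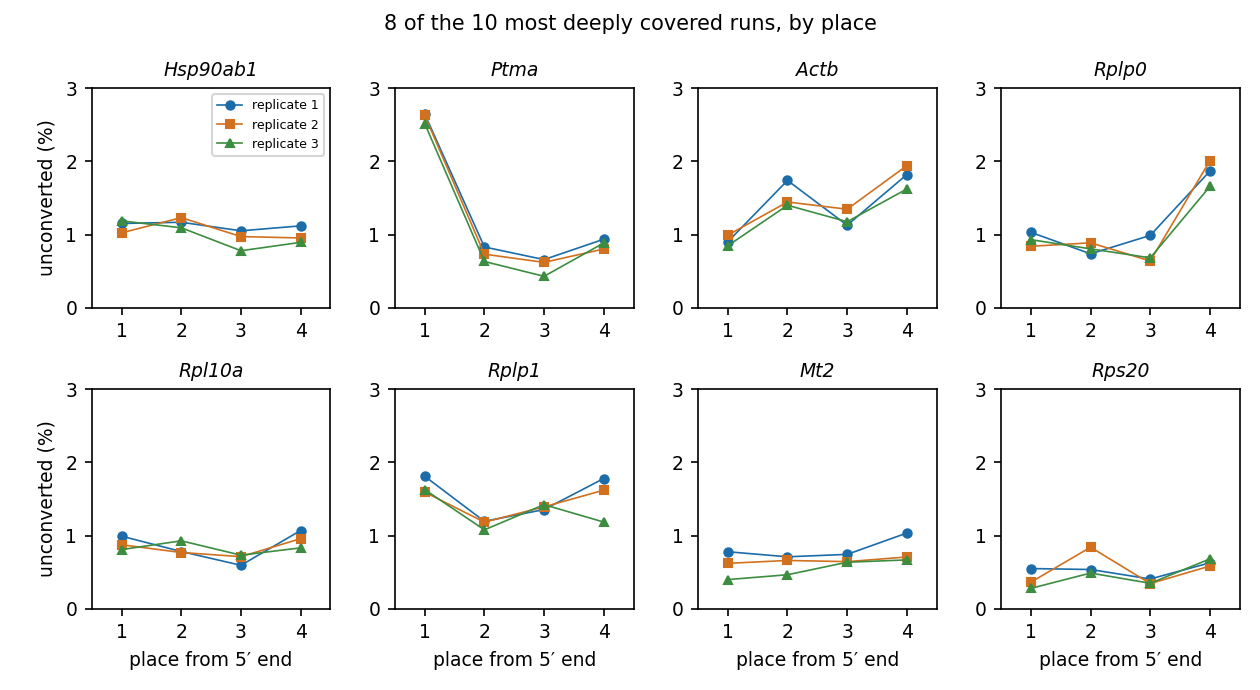
Unconverted share (percent of reads, vertical axis) at each place from the 5′ end in 8 of the 10 most deeply covered runs, 1 line per replicate. The first place of Ptma near 2.6% and the last place of Rplp0 stand apart in all replicates, Actb is lowest at its first place, and the run of Rps20 stays below 0.9%.

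Which single members stayed unconverted was asked with a test across all testable cytosines. A cytosine was called when its adjusted p was below 0.05 (one-sided exact binomial test against the library-wide share, 3 libraries combined by Fisher's method, Benjamini-Hochberg over 1639820 cytosines), its mean share was at least 10%, and it lay above the library-wide share in each library. Of all testable cytosines 775 (0.0473%) were called, and of the run cytosines 74, or 86.9 per 100000 (exact 95% interval 68.3 to 109). Single cytosines had 49.5 per 100000 (44.9 to 54.4), runs of 2 had 36.4 (31.3 to 42.1) and runs of 3 had 48.0 (38.5 to 59.0). These intervals take cytosines as independent, although neighbours share reads, and the difference between the kinds was not tested. With no level minimum, 341 run cytosines (0.401%) had an adjusted p below 0.05 against 0.499% of all testable cytosines. They then stood below single cytosines, at 0.597%, but not below runs of 2 and of 3, at 0.392% and 0.378%. Called members with a mean share of 20% or more numbered 9, or 0.0106% of the members, against 0.00524% of all testable cytosines called at that level.

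The count of called members is given here with the share called among all testable cytosines under each other setting. With a coverage minimum of 20 there were 48 (0.0486% of all), with 50 there were 15 (0.0267%), and when the largest p-value of the 3 libraries was used for each cytosine 15 (0.00665%). Without a level minimum but above the library-wide share in each library there were 325 (0.469%). Counting 1 transcript per gene gave 74 (0.047%), and setting each transcript's other reads as its background gave 70 (0.0461%). Without replicate 1, 2 or 3 there were 64 (0.0453%), 60 (0.0428%) and 77 (0.0466%). The members' own shares were below that of all testable cytosines only without a level minimum, at 0.382%.

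The 74 called cytosines lay in 49 runs of 45 genes, and 38 of them shared a run with another. A single cytosine was called in 36 runs, 2 in 5 runs, 3 in 4 runs and all 4 in 4 runs. Positions up to 500 held 50 of the 74. Beyond position 200 and up to 500 there were 36 called among 13796 run cytosines, against 70 among 124975 single ones. The excess did not hold along the whole mRNA: beyond position 1000 and up to 2000 there were 24.8 called per 100000 run cytosines against 47.0 at single ones, and in the next class downstream 25.6 against 42.3. In the first 50 positions 0 of 1045 run cytosines were called, against 67.5 called per 100000 single ones, too few run cytosines to compare such rates. An unadjusted p below 0.05 in the exact binomial test was held by 31 of them, and by 398 of 11852 single ones there. By place, 14 were at the first, 41 inside and 19 at the last cytosine, or 72.8, 95.2 and 98.8 per 100000 cytosines at these places. Of the 9 at 20% or above 5 were at the last.

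Among the runs with called cytosines, some had a single high place and others were high throughout. The windows below, 28 positions each, are drawn from the deposited positions. Capital C marks the run, lower-case c another listed cytosine and n any other position. The upper 4 lines are runs with a single high cytosine and the lower 4 the runs called at every place. All but Rcc2 hold one or more of the 10 called cytosines with the highest share; the others of the 10 lie in Srcap and Gtf3a.

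Cenpv 665 to 692: nccncncnccnnCCCCnnnnncnnnnnn
Lin28a 3290 to 3317: nnnnccccccnCCCCCCnnnncnnnnnn
Col1a1 1150 to 1177: nncncnnnnnnnCCCCnnnnnnnncnnn
Arl6ip4 217 to 244: nnncncnnnncnCCCCnnnnnncnnnnc
Rad23b 293 to 320: nnnncnnccnnnCCCCnncnnnnncncc
Rcc2 260 to 287: ncnncncnncnnCCCCncnnncnnnnnn
Slc9a3r1 207 to 234: nnnnnnccncnnCCCCnncncnncnncc
Rpl7l1 701 to 728: nnnnnnnnnncnCCCCnnncnnccnnnn

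In Cenpv (NM_028448.1), a gene of a centromere-associated protein, the last cytosine of the run at 677 to 680 was unconverted in 76 of 163, 77 of 166 and 79 of 163 reads, or 46.6%, 46.4% and 48.5%. The 3 cytosines before it, covered by nearly as many reads, had means of 1.41%, 1.61% and 2.21%. Lin28a (NM_145833.1), an RNA-binding protein of stem cells, was unconverted in 10 of 36, 7 of 25 and 7 of 33 reads at position 3306, the last of 6 (25.7% ± 3.86, SD, n = 3), and 4 unconverted reads in all at the other 5 places. Another run of 6 lies upstream of it, separated by a single base. Col1a1 (NM_007742.3), the fibrillar collagen also made by fibroblasts, had 22.1%, 21.2% and 18.8% at position 1165, again the last, and at most 4.26% in any library at the others. The fibroblast markers took at most 0.0412% of coverage, and the part of remaining feeder cells in the Col1a1 value was not tested. In Arl6ip4 (NM_144509.2) it was the third of 4 cytosines, position 231, with 19.6%, 21.4% and 20.0%. In these 4 runs no replicate of the high place overlapped with any replicate of the other places. Srcap, a chromatin remodelling ATPase, had 14.3%, 29.4% and 23.1% at the first of 4 places from only 13 to 17 reads, with means of 5.13% to 6.30% at the rest.

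The other pattern was an elevation at every place. Rad23b (NM_009011.4), a DNA repair and proteasome shuttle factor, was unconverted over its run at 305 to 308 in 17.5%, 15.8% and 13.8% of reads, with place means from 14.3% ± 1.39 to 19.0% ± 3.32 (SD, n = 3) and 744 to 750 reads per place. Rcc2 (NM_173867.5), a mitotic and adhesion regulator, had 14.4%, 15.3% and 14.1% over 272 to 275, with place means from 12.8% ± 2.21 to 16.3% ± 0.981. A second Rcc2 run at 255 to 258 went from 15.5% ± 1.69 at its first place to 6.08% ± 0.744 at its last, at 1246 to 1272 reads per place. Slc9a3r1 (NM_012030.2), a scaffold of membrane proteins, had 21.2%, 19.4% and 13.6% and Rpl7l1 (NM_025433.3), a relative of Rpl7, 19.6%, 12.1% and 12.9%, both from at most 30 reads per place and library. Gtf3a, transcription factor IIIA, lay between the patterns, with 9.60%, 21.5%, 10.1% and 4.05% as means of its 4 places. Its second place had 10.0%, 36.4% and 18.2%, a mean of 14.1% without replicate 2. With the largest p-value of the 3 libraries, the calls at Gtf3a 203, Srcap 6246, Slc9a3r1 221 and 222 and Rpl7l1 716 were lost, and that of Srcap also without replicate 2 (18.7%).

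**Figure D5:**
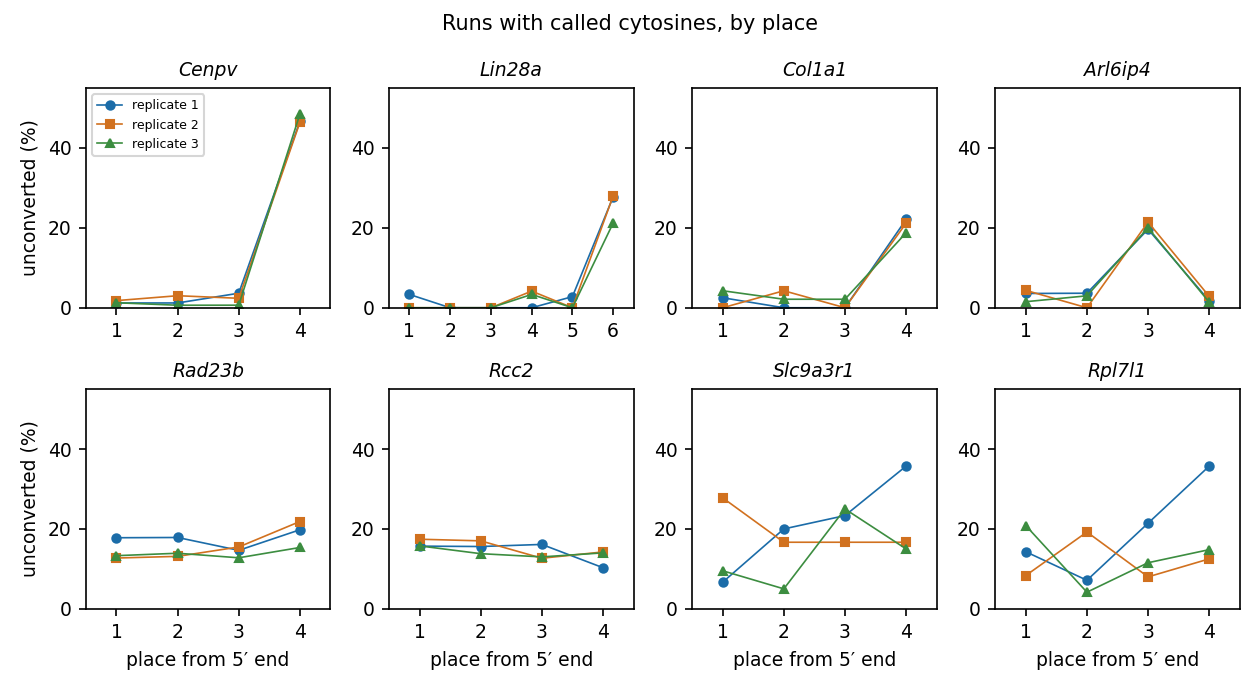
Unconverted share (percent of reads, vertical axis) at each place from the 5′ end in 8 runs with called cytosines, 1 line per replicate. Cenpv, Lin28a, Col1a1 and Arl6ip4 have 1 high place each, reaching 48.5% in Cenpv, while Rad23b and Rcc2 lie between 10% and 22% at every place, and the shallower Slc9a3r1 and Rpl7l1 scatter more.

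Among runs with a mean coverage over their places of at least 50 reads in each library, taking the highest run of each gene, those after Rad23b, Rcc2 and Cenpv were in Arih2, a ubiquitin ligase, and Ppp1r14b, an inhibitor of protein phosphatase 1. Arih2 had 10.1%, 10.8% and 6.82% over positions 2278 to 2281 and Ppp1r14b 8.59%, 9.90% and 8.25% over 298 to 302. Arih2 had 1 called cytosine and Ppp1r14b 2. The runs of Ftl1 (ferritin light chain), Fkbp4 (an Hsp90 cochaperone), Ndufa13 (a subunit of respiratory complex I) and Hnrnpa0 (an RNA-binding protein) had means of 6.07% to 6.91%. None of their cytosines had a mean share of 10%, while 3 of 4, 4 of 4, 4 of 5 and 2 of 4 had an adjusted p below 0.05 in the exact binomial test. Over all run cytosines 0.401% had such a p, and over all testable ones 0.499%. All these runs were picked by their share in the same reads, so the counts are only a description. In Ftl1 the summed coverage fell within the run from 653 reads at position 751 to 161 at 754, and in Hnrnpa0 from 647 at 99 to 132 at 102. Whether this fall bears on their share was not tested.

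At distances of 2 to 4 positions, cytosines of the same run of 4 or more resembled each other somewhat more than cytosines of different runs. The pairs between runs were drawn from all testable cytosines, with single ones counted as runs of 1, so they are not limited to members. At a coverage of at least 50, the correlation of shares across pairs 2 positions apart was 0.198, 0.187 and 0.162 in replicates 1, 2 and 3 inside runs (11963 pairs) and 0.0568, 0.0498 and 0.0501 between runs (82884 pairs). At 3 positions it was 0.182, 0.153 and 0.142 inside (6572 pairs) against 0.0975, 0.0818 and 0.0877 between (126134 pairs). Without the minimum of 50 it was at 2 positions only 0.0821, 0.0901 and 0.0631 inside and 0.0325, 0.0238 and 0.0241 between. At 5 positions, with 752 pairs inside, it was 0.0392, -0.0161 and 0.00167 against 0.0279 to 0.03 between. Pairs at these distances share most of their reads, and pairs are not independent. All these correlations are weak and are given as a description.

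The longest runs were few. The 3 shown are the longest in which every cytosine was testable; of a single run of 12, only 6 cytosines were.

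Ncapd2 4347 to 4374: nnncnnnnCCCCCCCCCCCnnnnnnnnn
Bud13 1930 to 1957: nnnncnccnCCCCCCCCCCnnnccnnnn
Ppp6r1 3695 to 3722: ncncccccnnCCCCCCCCnnnncnnnnn

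The run of 11 in Ncapd2, a condensin subunit, had 2.23%, 2.44% and 2.81%, 17 unconverted among 678 reads summed over its places, above the library-wide share in each replicate. Bud13, a splicing factor with a run of 10, had 2.83%, 2.00% and 1.11%. The runs of 8 in Ppp6r1, a phosphatase subunit, and Trim37, a ubiquitin ligase, had 1.41%, 1.15% and 0.516% and 0.752%, 1.01% and 1.17%, while that of the adhesion receptor Adgrl1 had 1.30%, 1.05% and 3.54%. No cytosine in runs of 8 or more was called in the exact binomial test, and 4 of 145 had an unadjusted p below 0.05. Of all 85132 run cytosines 2071 had such a p, and of all 1639820 testable ones 54459.

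Genes with the most run cytosines followed the general difference. Lama5, a basement membrane laminin, held 325 in 78 runs, with 1.25%, 1.25% and 1.24% in runs against 1.52%, 1.47% and 1.48% at single cytosines. Hspg2 (perlecan) held 292 with 1.31% ± 0.107 against 1.47% ± 0.0753, and Agrn (agrin) 190 with 1.25% ± 0.0333 against 1.53% ± 0.0476. The largest gap of the 5 was in Spen, a transcriptional repressor, with 192 run cytosines at 0.958% ± 0.163 against 1.47% ± 0.0444 (SD, n = 3). In Adgrl1, with 194, the gap was within the spread (1.45% ± 0.124 against 1.55% ± 0.106).

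Gene groups were read the same way, as counts and levels beside those of all genes, with no test. The mRNAs of the poly(C)-binding proteins held 94 run cytosines in 4 of 5 genes. Their share of 1.36%, 1.03% and 1.56% overlapped with that of all run cytosines. None was called or passed the adjusted p of the exact binomial test, and 1 had an unadjusted p below 0.05. That unadjusted level was passed by 2071 of all 85132 run cytosines and by 54459 of all 1639820 testable ones, against which the unadjusted counts of the lists are to be read. Pcbp1, an intronless member of the family, had 1.12% ± 0.107 in runs against 1.58% ± 0.0585 at single cytosines, and Pcbp4, with 47 run cytosines, 1.54% ± 0.549 against 1.35% ± 0.0638. RNA m5C writers and readers held 133 run cytosines, 0 of them called and 6 at an unadjusted p below 0.05 in the exact binomial test, with 1.36% ± 0.0783 against 1.71% ± 0.0728 at single ones. Nsun2, a methyltransferase of mRNA and tRNA, had 1.10% ± 0.167 against 1.56% ± 0.0964, and Ybx1 1.45% ± 0.171 against 1.86% ± 0.107 (SD, n = 3 for each).

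Genes whose proteins are rich in proline came next. Actin assembly factors such as the formins Fhod1 and Diaph1 held 128 run cytosines in 10 of 15 testable genes, at 0.960%, 1.34% and 1.05%. None was called, and 2 had an unadjusted p below 0.05 in the exact binomial test. The 19 testable collagen genes had the highest proportion of run cytosines of the lists, 10.8% of their testable cytosines against 5.19% overall. Their runs were at 1.54% ± 0.141 against 1.58% ± 0.105 at single cytosines, a gap smaller than the spread. Called was 1 of their 318 run cytosines (0.314%, against 0.0869% of all run cytosines), that of Col1a1. Its runs stood at 2.00% ± 0.389 against 1.44% ± 0.0797 at its single cytosines, Col4a1 at 1.24% ± 0.251 against 1.43% ± 0.219 (SD, n = 3 for each).

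Cytosolic ribosomal protein genes held 578 run cytosines in 61 of 82 testable genes. Their runs had 1.18%, 1.10% and 1.05%, against 1.57%, 1.47% and 1.44% at their single cytosines, so the groups did not overlap. The 4 called ones (0.692%, against 0.0869% of all run cytosines) were the whole run of Rpl7l1. The list took in this relative of Rpl7 by its symbol. No other gene of the list had a called run cytosine. With this run included, 23 (3.98%) had an adjusted p below 0.05 in the exact binomial test, against 0.499% of all testable cytosines. Some of these genes were read deeply, such as Rplp0 with a mean of 7325.67 reads per place in its run at 471 to 474. Rpl29 had 1.00% ± 0.144 in runs against 1.89% ± 0.0869 at single cytosines. Pluripotency genes held 521 run cytosines in 16 of 17 testable genes, with 1.30% ± 0.0634 against 1.48% ± 0.0430 (SD, n = 3). Called were 2 of them (0.384%), against 0.0869% of all run cytosines and 0.0473% of all testable ones. These were the cytosine of Lin28a and position 626 of the transcription factor gene Tfcp2l1. The latter, the first of 5, had 15.0%, 5.56% and 21.1% from 18 to 20 reads. An adjusted p below 0.05 in the exact binomial test was held by 10 (1.92%), against 0.401% of all run cytosines. Klf2, a transcription factor with 88 run cytosines, had 4 with an adjusted p below 0.05, at means of 2.11% to 4.54%, and Klf4 had 0 among 91, at 1.29% ± 0.00879 over its runs. Over all genes the median mean share of a run cytosine was 1.05%, and it was 1.16% for the poly(C)-binding, 1.28% for the m5C, 0% for the actin assembly, 1.19% for the collagen, 1.11% for the ribosomal and 1.15% for the pluripotency list.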

How the data were processed

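Bisulfite sequencing of polyadenylated RNA was analysed in 3 libraries of 1 group. The submitters' processing notes name BSMAP and build mm9; no source used here gives its version, the counting step or the annotation. The deposited tables list, per cytosine of an mRNA, its coverage as a raw read count and its unconverted share as a fraction, with no cytosine under 3 reads. The product of both columns lay within 1e-06 of a whole number in 100% of entries and was taken as the unconverted reads. Total coverage was 151362866, 142608298 and 139884444. Run cytosines had a median of 31, 27 and 27 reads; 0 unconverted reads there still allow shares up to 9.68%, 11.1% and 11.1%, and such limits and intervals cover counting error only, since PCR copies are not marked.

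Of 15021 transcripts, 14932 were given a symbol by accession (GRCm38.p6 table, names only). Shares were pooled over reads per library and compared within libraries (Python 3.11.15, scipy 1.17.1). Within transcripts, the difference was weighted by run coverage times single coverage over their sum. On simulated reads the calling rule recovered 84% of 100 sites set to 20% and 100% of 100 set to 50%, among 1639820 cytosines.

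Named were the 10 called run cytosines with the highest share, the 5 longest complete runs, the 10 deepest complete runs and the 10 highest ones with a mean coverage of at least 50 in each library (both at most 1 per gene), the 5 genes with the most run cytosines and up to 3 genes per list; some are not described, and 2 of the deepest runs are not reported here. Printed starts are the 3 longest and 4 deepest runs; Btg3 is left out. The second Rcc2 run was chosen after its values were seen. Members and lists were chosen with earlier results of these data known.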

Additional observations from a re-analysis of the deposited data

How the results depend on the processing

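No paired analysis was possible between groups because the libraries form 1 group; run and single cytosines, and places, were compared within each library. The difference between run and single cytosines stayed below 0 under all 13 alternatives. It was -0.247 points with runs of 5 or more, -0.200 as a mean of the shares of the cytosines, -0.206 within coverage classes and -0.143 within density classes, and -0.219 to -0.211 without 1 replicate. Within transcripts it was -0.265 with runs of 5 or more. The last minus the first place was -0.240 as a mean of the shares. The next-to-last minus the first was -0.441 with runs of 5 or more and -0.343 as a mean of the shares, and the last minus the next-to-last was 0.183 with runs of 5 or more. Other settings moved these values by less than 1 SD between replicates. The number of called run cytosines was 48 at a coverage minimum of 20 and 15 at 50, 13 in runs of 5 or more, 15 with the highest of the 3 p-values, 9 at a level minimum of 20% and 325 without one. These settings test or keep fewer cytosines, except the last, which keeps more. Over all testable cytosines the same settings called 489, 118, 775, 109, 86 and 7694. Without 1 replicate there were 60 to 77. Of 79 values of the 10 named called cytosines under these alternatives, 73 stayed called, and the 6 lost calls are named with their genes. Sites under a raised coverage minimum had no value and are not among the 79. At a minimum of 20 those of Slc9a3r1, Srcap and Rpl7l1 dropped out, and at 50 only those of Cenpv, Arl6ip4 and Rad23b remained. Runs taken from positions listed in all 3 tables, or 1 transcript per gene, changed no count by over 1.5 times. Depth limits single places: at 10 reads a count of 0 allows a share of up to 30%.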
